A study of Rattus norvegicus with 6 samples.

Results

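The genes described here encode the proteins of the mitochondrial ribosome. They were taken as every row of the count tables whose gene name is Mrpl or Mrps followed directly by a number. The rule found 72 rows. Mrpl42 occurred in 2 of them, and the row with the higher mean count was kept, which left 71 genes of 18077 rows, 42 named Mrpl and 29 named Mrps. Rows written in lower case (mrpl9, mrpl11 and mrpl24) fell outside the rule and are given separately.

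RNA was sequenced from 6 libraries of cultures labelled as neonatal rat cardiomyocytes, prepared from pups of 1 to 3 days by digestion and pre-plating, with BrdU in the medium against fibroblasts. All cultures received palmitic acid (500 µM), one of the common saturated fatty acids, during 24 h, and all carried an adenoviral vector. The 3 libraries labelled Ad-GFP carried a vector with green fluorescent protein and served as the control, and the 3 labelled Ad-RNF128 a vector for RNF128, a RING-type ubiquitin ligase, which the treatment protocol once spells RNF28. The labels give no strain, no separate animals and no batch, so the p-values rest on the variation among these libraries alone, and that variation may be technical. No untreated culture without palmitic acid was analysed here. By its labels, the comparison is of RNF128 overexpression with a control vector under palmitic acid. The counts of the rat gene Rnf128 given further on do not show that overexpression.

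The mitochondrial ribosome sits in the mitochondrial matrix and translates the few messenger RNAs of the mitochondrial genome, which encode core subunits of the respiratory chain and of ATP synthase. Its ribosomal RNAs come from the mitochondrial genome, while all of its proteins are encoded in the nucleus and imported. Some of these proteins have bacterial counterparts and others are particular to mitochondria. In heart muscle, which relies on oxidative metabolism, the respiratory chain depends on this translation system. The large subunit joins amino acids and holds the exit tunnel, and the small subunit holds the messenger RNA. Symbols do not fully follow the subunits, since Mrps18a and Mrps30 are proteins of the large subunit and Mrps36 is also known as a component of the alpha-ketoglutarate dehydrogenase complex. On these assignments the 71 genes comprised 44 of the large subunit, 26 of the small subunit and Mrps36.

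Promoters were examined for 56 of the 71 genes that matched by symbol in the RefSeq table (build GRCr8, 250 bases before to 50 after the gene's start). Letters were searched on both strands for factors known for genes of mitochondrial proteins. The palindromic NRF1 motif, with a free middle base, occurred in 9 of the 56 (16.1%), against 4.25% of all 33469 promoters in the table. CCGGAAG, the core bound by ETS factors such as GABP, occurred in 19 (33.9%), against 8.75%. AANATGGCG, a YY1 match, occurred in 12 (21.4%), against 3.01%, and the GC box GGGCGG in 28 (50%), against 33.1%. Among the 21851 promoters of protein-coding genes the shares were 5.67% for NRF1, 10.7% for ETS, 3.67% for YY1 and 41.8% for the GC box. These are matches of letters, not measured sites. The promoters below belong to the gene with the largest rise (Mrps18a), the gene with the largest rise among those with an NRF1 match (Mrpl30), the gene with the largest fall (Mrps27) and the gene lowest in Ad-GFP replicate 1 relative to the other controls on the log2(CPM + 1) scale (Mrpl42). Each is the last 200 bases of its 300-base window, in lower case from 5′ to 3′, and capitals mark the 4 motifs on either strand.
Mrps18a promoter (chr9:22367331-22367530, - strand): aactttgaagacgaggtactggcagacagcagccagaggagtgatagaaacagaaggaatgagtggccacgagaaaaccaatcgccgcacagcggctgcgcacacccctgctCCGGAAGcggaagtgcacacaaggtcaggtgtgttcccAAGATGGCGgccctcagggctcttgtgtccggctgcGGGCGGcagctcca
Mrpl30 promoter (chr9:47621077-47621276, + strand): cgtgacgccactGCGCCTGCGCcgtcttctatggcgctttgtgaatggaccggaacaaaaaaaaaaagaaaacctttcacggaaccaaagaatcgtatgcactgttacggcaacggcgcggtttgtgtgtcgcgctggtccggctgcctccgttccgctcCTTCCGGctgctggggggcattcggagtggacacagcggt
Mrps27 promoter (chr2:32474054-32474253, + strand): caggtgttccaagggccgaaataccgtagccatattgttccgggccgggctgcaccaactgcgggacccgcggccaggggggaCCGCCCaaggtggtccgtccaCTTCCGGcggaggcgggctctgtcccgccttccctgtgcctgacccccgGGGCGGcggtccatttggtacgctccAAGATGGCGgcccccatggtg
Mrpl42 promoter (chr7:32028473-32028672, - strand): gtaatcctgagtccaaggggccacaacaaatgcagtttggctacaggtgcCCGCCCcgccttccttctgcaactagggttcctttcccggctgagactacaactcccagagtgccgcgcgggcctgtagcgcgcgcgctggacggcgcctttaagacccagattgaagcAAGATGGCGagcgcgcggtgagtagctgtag
Mrps18a, Mrps27 and Mrpl42 share the YY1 letters AAGATGGCG at or shortly after the gene's start. Against Ad-GFP replicates 2 and 3, Mrps18a was higher and Mrps27 and Mrpl42 lower in the libraries labelled Ad-RNF128. A relation of these letters to the changes was not tested. Within these 200 bases Mrpl30 alone holds an NRF1 match, upstream, with ETS letters after its start.

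Library totals ran from 16352843 to 21708973 counts. The rat gene Rnf128 itself was at 0 to 0.111 CPM (counts scaled to a library total of 1000000) in Ad-GFP and 0.0519 to 0.138 CPM in the libraries labelled Ad-RNF128, so the counts do not bear out that label, and every direction below rests on it. Rnf157, a gene for another RING-type ubiquitin ligase, had 22.3, 39.6 and 40.4 CPM across Ad-GFP replicates 1 to 3, while the libraries labelled Ad-RNF128 had 1923, 2553 and 2090 CPM (log2 change against Ad-GFP replicates 2 and 3 of 5.62 ± 0.13 SE, edgeR adjusted p = 8.08e-14). The groups thus differed in a RING-type ligase gene other than the one the label names. The cell type label was checked with marker genes. The 9 cardiomyocyte markers with a row summed to 65.2, 388 and 387 CPM in Ad-GFP replicates 1 to 3 and to 105, 78.5 and 35.2 CPM in Ad-RNF128, where Nppa was at 0 in replicate 3. Myh6, the main myosin heavy chain of adult rat heart, was at 0.104 to 16.0 CPM. The 7 fibroblast markers summed to 2960, 38200 and 39800 CPM in Ad-GFP and to 10300 to 11100 CPM in Ad-RNF128. The 4 smooth muscle markers summed to 4690 to 5830 CPM, the 4 skeletal muscle markers to 44.6 to 113 CPM, the 4 endothelial markers to 0.571 to 1.38 CPM and the 4 leukocyte markers to 0.609 to 3.92 CPM, with Ptprc at 0 in all 3 Ad-GFP libraries. The cardiomyocyte and fibroblast sums rested unevenly on their genes. Without Tnnt2, a troponin at 342 and 350 CPM in Ad-GFP replicates 2 and 3, the other 8 cardiomyocyte markers summed to 51.9, 45.2 and 36.9 CPM in Ad-GFP and to 48.0, 36.3 and 1.14 CPM in Ad-RNF128. The collagen genes Col1a1, Col1a2 and Col3a1 carried the fibroblast sum. Postn was at 0.978 to 348 CPM, and Dcn, Pdgfra and Lum were at 0.175 to 2.86 CPM. The part of these cell types in the results below was not tested. In bulk RNA, fewer cells of a type and less RNA per cell cannot be told apart.

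Mitochondrial ribosomal protein genes stayed close together in level in 5 of the 6 libraries and scattered in the other, Ad-GFP replicate 1. The SD of log2(CPM + 1) over the 71 genes was 2.10 in Ad-GFP replicate 1, against 0.86 and 0.89 in replicates 2 and 3 and 0.88 to 0.91 in the libraries labelled Ad-RNF128. Over all 12863 genes tested it was 2.72 in Ad-GFP replicate 1 and 2.14 to 2.26 in the others. With CPM over library totals the median of the 71 genes was 4.93 in Ad-GFP replicate 1 and 4.69 to 5.06 elsewhere, while that of all genes tested was 2.48 there and 4.71 to 4.90 elsewhere. With the TMM-scaled library sizes used in the tests it was 5.99 there and 4.59 to 4.78 elsewhere, and that of all genes tested 3.43 and 4.61 to 4.62. The strip plot of all 71 genes by library shows the wide spread of this library, on CPM over library totals.

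**Figure D1:**
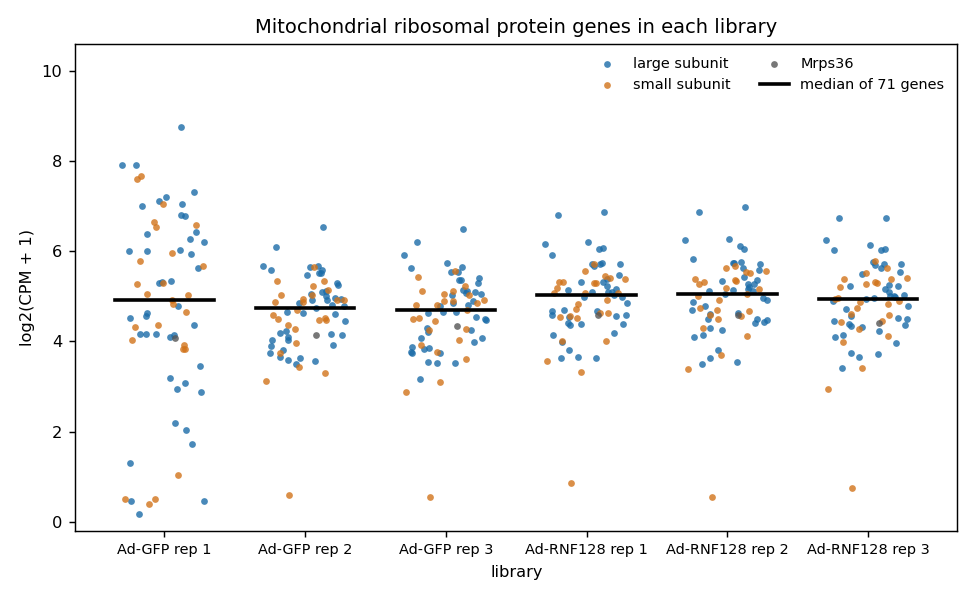
Level of the 71 mitochondrial ribosomal protein genes in each library, as log2(CPM + 1) on the vertical axis, with 1 point per gene coloured by subunit and a black line at the median. The points of Ad-GFP replicate 1 spread far more widely (SD 2.10) around a median of 4.93 than those of the other 5 libraries (SD 0.86 to 0.91), where Mrps17 is the single low point.

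The summed level of the family also set Ad-GFP replicate 1 apart. The 71 genes took 0.413% of its counts, against 0.193% and 0.192% in replicates 2 and 3 and 0.243%, 0.251% and 0.238% in Ad-RNF128 replicates 1 to 3. The sum was thus highest in a control library, and the other controls lay below all 3 libraries labelled Ad-RNF128. Rows named Rpl or Rps with a number, mostly cytosolic ribosomal protein genes, took 10.9%, 3.04% and 3.31% of the counts in Ad-GFP and 4.3% to 4.67% in Ad-RNF128, again highest in Ad-GFP replicate 1 and lowest in the other controls. The 13 mitochondrial genome genes took 0.951%, 4.91% and 5.35% in Ad-GFP and 3.08% to 3.32% in Ad-RNF128, lowest in Ad-GFP replicate 1 and highest in the other controls. Within the family, Mrpl28 took 10.4% of the summed level in Ad-GFP replicate 1 and the 5 highest genes 31.7%. In the other 5 libraries the highest gene was Mrpl17, at 4.46% to 5.02%, and the 5 highest took 16.0% to 18.4%.

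Relative to the mean of Ad-GFP replicates 2 and 3, 42 of the 71 genes were higher in Ad-GFP replicate 1 and 29 lower. On the scale of log2(CPM + 1), 26 were at least 2-fold higher, 17 at least 2-fold lower and 28 within 2-fold. These counts are for CPM over library totals. With TMM-scaled sizes 55 were higher and 16 lower, 44 at least 2-fold higher and 12 at least 2-fold lower, and the median log2 ratio was 1.64, beside -0.48 over all genes tested. With library totals the median log2 ratio was 0.46 and the median size of the ratio 1.54, against -1.22 and 1.86 over all genes tested, of which 70.4% differed by at least 2-fold. Replicates 2 and 3 differed from each other by a median size of 0.10 and at most 0.49 on this scale. With 1 library against 2 there is no test of these differences. Ad-GFP replicate 1 lay above all 5 other libraries for 37 genes (52.1%, against 24.5% of all genes tested) and below all 5 for 27 (38.0%, against 66.2%). It fell within their range for 7 genes. The family's median ratio thus lay above that of all genes tested under both scalings.

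By log2 ratio with a pseudocount of 1 CPM, among genes with a mean of at least 5 CPM in Ad-GFP, those highest in Ad-GFP replicate 1 relative to the other controls were Mrpl2, Mrpl28 and Mrps34. Mrpl2 (ENSRNOG00000018057), a large subunit protein near the catalytic centre, was at 126.6, 13.0 and 13.2 CPM in Ad-GFP replicates 1, 2 and 3. Mrpl28, another large subunit protein with a bacterial counterpart, was at 430.8, 46.9 and 49.2 CPM, and at 66.1, 65.3 and 64.9 CPM in Ad-RNF128. Mrps34, a small subunit protein particular to mitochondria, was at 204.2, 31.9 and 33.7 CPM, and at 38.7, 38.6 and 40.9 CPM in Ad-RNF128. In all 3 genes replicate 1 was above every other library of the study, and replicates 2 and 3 lay close together. The plain CPM ratios, with no pseudocount, of replicate 1 to the mean of the other controls were 9.65, 8.97 and 6.23.

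On the same scale the lowest were Mrpl42, Mrpl47 and Mrps31. By the plain CPM ratio Mrpl1, a large subunit protein named here after its values were seen, was lower still, with 2 counts (0.122 CPM) against 11.6 and 7.97 CPM, a ratio of 0.0125 beside 0.0152 for Mrpl42. Mrpl42, a large subunit protein, had 6 counts in Ad-GFP replicate 1 and 482 and 460 counts in replicates 2 and 3, or 0.367, 26.7 and 21.6 CPM, and was at 23.1, 21.2 and 21.45 CPM in Ad-RNF128. Mrpl47, which lies by the exit of the peptide tunnel, was at 0.367, 15.5 and 12.4 CPM, and at 16.8, 16.1 and 16.2 CPM in Ad-RNF128. Mrps31, a small subunit protein, was at 0.428, 14.6 and 12.5 CPM, and at 21.99, 21.5 and 18.4 CPM in Ad-RNF128. In Mrpl42, Mrpl47 and Mrps31 replicate 1 was far below the other 5 libraries. The exact 95% Poisson interval of the count in replicate 1 reached from 2.2 to 13.1 for Mrpl42 and Mrpl47 and from 2.81 to 14.4 for Mrps31, which covers counting error only. The upper bounds, 0.799 and 0.882 CPM, are below the values of all other libraries. Of the 71 genes, 6 were under 1 CPM in Ad-GFP replicate 1, against 1 (Mrps17) in each of the other libraries.

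**Figure D2:**
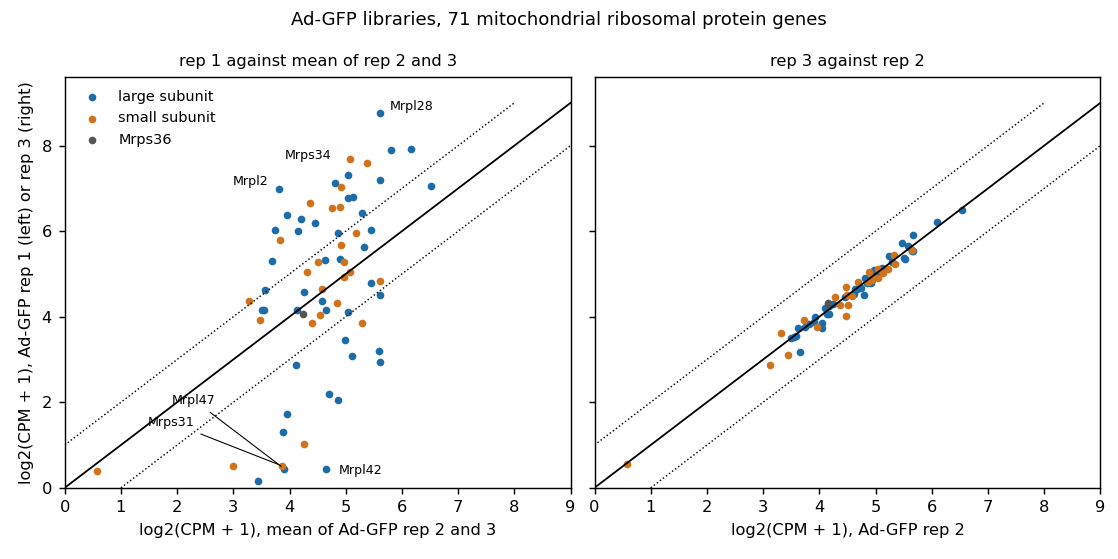
Levels of the 71 genes in the Ad-GFP libraries as log2(CPM + 1), with 1 point per gene coloured by subunit, the solid line at equality and the dotted lines at 2-fold. On the left, replicate 1 is plotted against the mean of replicates 2 and 3 and 26 points lie above and 17 below the dotted lines, and on the right replicate 3 is plotted against replicate 2 and all points lie inside.

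Genes of both subunits showed the scatter. Of the 44 large subunit genes, 18 were at least 2-fold higher and 13 at least 2-fold lower in Ad-GFP replicate 1, and of the 26 small subunit genes 8 and 4. Median sizes of the log2 ratio were 1.71 and 0.78, beside 1.86 over all genes tested, of which 70.4% differed by at least 2-fold. All 25 large subunit genes with a bacterial counterpart lay outside the range of the other 5 libraries, 15 above and 10 below, as did all 10 small subunit genes particular to mitochondria, 5 above and 5 below. Of all genes tested 90.7% did so. Across the 71 genes, the log2 levels in Ad-GFP replicate 1 had Pearson r of 0.465 to 0.591 with the other libraries (Spearman rho 0.404 to 0.534), and r among the other 5 was 0.943 to 0.991 (rho 0.918 to 0.984). These are descriptions over genes that share each library's scaling and are not independent. The GC content of the promoter window had r = 0.218 and rho = 0.143 with the log2 ratio of replicate 1 over 56 genes, a weak relation read as no finding.

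Over all 6 libraries no mitochondrial ribosomal protein gene differed between the groups past the threshold. Of 70 genes that passed the low-count filter (Mrps17 did not), edgeR called 0 higher and 0 lower at an adjusted p under 0.05, and 0 had an unadjusted p under 0.05. DESeq2 called 0 as well, with 6 at an unadjusted p under 0.05. It gave no adjusted p to some of the genes, including Mrps24, Mrpl28, Mrps34, Mrpl23 and Mrpl2, so these could not be called. Over all 12863 genes tested edgeR called 0.0%, with 5.77% at an unadjusted p under 0.05, and DESeq2 called 3.0%. The smallest unadjusted p values belonged to Mrps24 (0.066), Mrpl28 (0.0899), Mrps34 (0.0899) and Mrpl23 (0.0975), with edgeR log2 changes of -2.39, -2.64, -2.35 and -2.10 and an adjusted p of 0.681. Each of these 4 was highest of all libraries in Ad-GFP replicate 1, with Mrps24, which helps form the messenger RNA channel, at 193.5 CPM there against 36.2 to 42.2 CPM elsewhere, and Mrpl23, a protein of the tunnel exit, at 157.1 CPM against 30.3 to 39.9 CPM.

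The direction in this comparison depended on the scaling. With TMM factors (0.470 for Ad-GFP replicate 1, 1.08 to 1.22 for the others) the median log2 change of the 70 genes was -0.66, with 51 below 0, beside -0.02 over all genes tested. With library totals alone it was 0.05, beside 0.35 over all genes, so the family's median lay below that of all genes under both scalings while its sign did not hold. The CPM values of the groups did not overlap for 20 of the 71 genes higher in Ad-RNF128 (28.2%, against 30.4% of all genes tested) and for 1 lower (1.41%, against 3.59%), where 34.0% of all genes tested were apart in either direction. That gene was Mrps24, at 193.5, 39.2 and 42.2 CPM in Ad-GFP replicates 1 to 3 and at 38.8, 38.0 and 36.2 CPM in Ad-RNF128.

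Set against Ad-GFP replicates 2 and 3 alone, the libraries labelled Ad-RNF128 held slightly more RNA of many mitochondrial ribosomal protein genes. All 71 genes passed the low-count filter, and 28 rose (39.4%, against 28.9% of 13173 genes tested), 5 fell (7.04%, against 28.0%) and 38 did not pass edgeR's adjusted p under 0.05. Either call was made for 33, where 56.9% of all genes tested had one. The changes were small. Fitted log2 changes ran from -0.46 to 0.92 with a median of 0.14, or 1.10-fold, beside 0.015 over all genes tested. No gene of the family reached a fitted 2-fold change, against 12.5% of all genes tested. CPM values of the groups did not overlap for 52 genes higher in Ad-RNF128 (73.2%, against 48.7%) and 2 lower (2.82%, against 23.6%). This CPM is over library totals, while TMM factors were 0.92 and 0.96 in these controls and 1.04 to 1.05 in Ad-RNF128. The 52 therefore include genes without a fitted rise, such as Mrps12 (log2 change -0.025). With library totals in place of TMM 46 genes rose and 1 fell, the family median was 0.30 and that of all genes 0.17. This comparison leaves out the library that stood apart, a choice made with its values known.

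**Figure D3:**
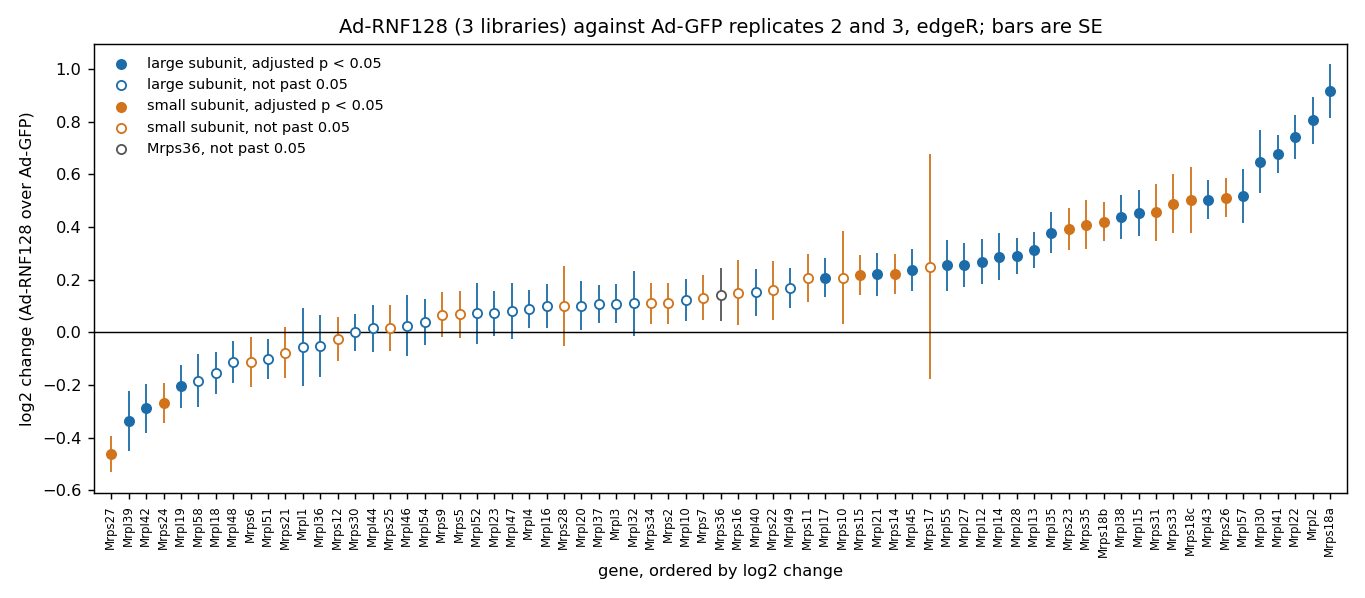
Log2 change of each of the 71 genes between the 3 libraries labelled Ad-RNF128 and Ad-GFP replicates 2 and 3, ordered from lowest to highest, with bars of 1 SE from edgeR. Filled points passed an adjusted p of 0.05, with 28 above and 5 below the zero line, and all 71 lie between -0.46 and 0.92.

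The largest rises belonged to large subunit genes. Mrps18a (ENSRNOG00000019511), whose protein sits in the large subunit, was at 12.4 and 12.5 CPM in Ad-GFP replicates 2 and 3 and at 24.7, 24.9 and 28.8 CPM in Ad-RNF128. The groups were clearly apart, and the log2 change was 0.92 ± 0.10 (SE; 1.89-fold, edgeR adjusted p = 2.67e-06). Mrpl2 was at 13.0 and 13.2 CPM in the same controls and at 24.97, 26.4 and 25.2 CPM in Ad-RNF128, a rise of 0.81 ± 0.09 (SE, edgeR adjusted p = 2.6e-06). Ad-GFP replicate 1 held both genes far above the libraries labelled Ad-RNF128, at 63.7 and 126.6 CPM, and with all 6 libraries the fitted log2 changes of the pair were -1.29 and -2.22.

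Mrpl22, a protein of the exit tunnel, stood at 17.1 and 17.95 CPM in Ad-GFP replicates 2 and 3 and at 33.2, 33.7 and 31.1 CPM in Ad-RNF128 (log2 change 0.74 ± 0.09 SE, edgeR adjusted p = 3.68e-06). It was again highest in Ad-GFP replicate 1, at 76.7 CPM. Mrpl41, a large subunit protein particular to mitochondria, stood at 29.5 and 28.1 CPM in Ad-GFP replicates 2 and 3 and at 50.1, 52.8 and 50.6 CPM in Ad-RNF128 (0.68 ± 0.07 SE, edgeR adjusted p = 1.93e-06). On CPM over library totals its value in Ad-GFP replicate 1, 39.7 CPM, lay between the groups. All 3 controls were then below all 3 libraries labelled Ad-RNF128. That order did not hold with the TMM factors over 6 libraries, 0.470 for Ad-GFP replicate 1 and 1.21 to 1.22 for Ad-RNF128. With them the log2 change over all 6 libraries was -0.12, without passing.

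Mrpl30, which has a bacterial counterpart, stood at 13.9 and 13.8 CPM in Ad-GFP replicates 2 and 3 and at 23.2, 28.2 and 20.9 CPM in Ad-RNF128 (0.65 ± 0.12 SE, edgeR adjusted p = 0.000286). Ad-GFP replicate 1 held it at 1.47 CPM, below every other library. Mrpl57, a small protein particular to mitochondria, stood at 11.4 and 12.4 CPM in Ad-GFP replicates 2 and 3, at 19.9, 18.2 and 18.9 CPM in Ad-RNF128 and at 38.5 CPM in Ad-GFP replicate 1 (0.52 ± 0.10 SE, edgeR adjusted p = 0.000618). Among these 6 rises, only Mrpl30 kept a positive log2 change over all 6 libraries with TMM factors, at 1.05 with an adjusted p above 0.05. With library totals Mrpl41 was positive too, at 0.66 without passing, while Mrps18a, Mrpl2, Mrpl22 and Mrpl57 stayed below 0.

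Of the 5 genes that fell, the groups did not overlap for Mrps27 and Mrps24. Mrps27, an RNA-binding protein of the small subunit, stood at 49.3 and 46.1 CPM in Ad-GFP replicates 2 and 3 and at 38.2, 39.3 and 38.0 CPM in Ad-RNF128 (log2 change -0.46 ± 0.07 SE, edgeR adjusted p = 5.3e-05). Its log2 change over all 6 libraries was -0.63 with TMM factors and -0.09 with library totals, without passing in either. On CPM over library totals Ad-GFP replicate 1, at 27.6 CPM, was below every other library. That order did not hold with the TMM factors, 0.470 for Ad-GFP replicate 1. Mrps24 stood at 39.2 and 42.2 CPM in Ad-GFP replicates 2 and 3 and at 38.8, 38.0 and 36.2 CPM in Ad-RNF128 (-0.27 ± 0.08 SE, edgeR adjusted p = 0.00775). The gap between its groups was narrow, and its call was lost without Ad-GFP replicate 3 (-0.19, adjusted p = 0.0973) and with library totals (-0.11, adjusted p = 0.202). The other 3, named after their values were seen, were Mrpl39 (-0.34), Mrpl42 (-0.29) and Mrpl19 (-0.21), whose CPM ranges overlapped.

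**Figure D4:**
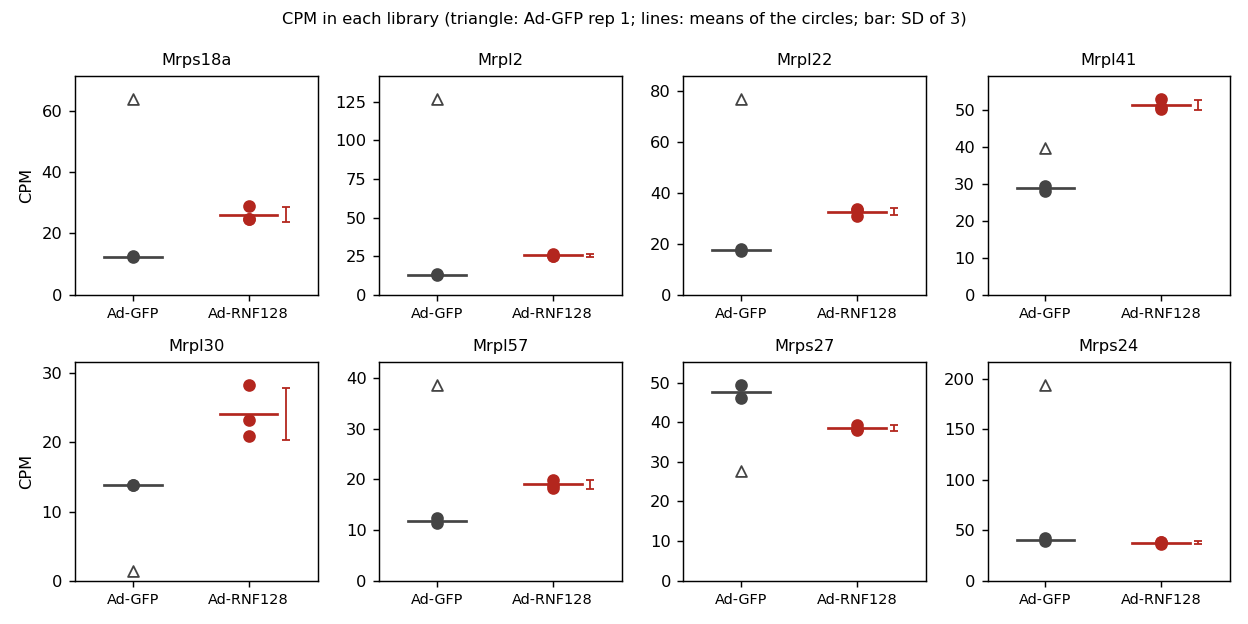
CPM in each library for the 6 genes of largest rise and both genes with a fall and separate groups, on axes that start at 0, with triangles for Ad-GFP replicate 1, circles for the other libraries, lines at the means of the circles and bars for the SD of the 3 libraries labelled Ad-RNF128. The triangle lies above all circles for Mrps18a, Mrpl2, Mrpl22, Mrpl57 and Mrps24, and below all for Mrpl30 and Mrps27.

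Both subunits held genes that rose and genes that fell, where 28.9% of all genes tested rose and 28.0% fell. In the large subunit 19 of 44 genes rose and 3 fell, with a median log2 change of 0.12, and in the small subunit 9 of 26 rose and 2 fell, with a median of 0.16. The difference between subunits was not tested. Within the large subunit 13 of 25 genes with a bacterial counterpart rose and 1 fell, and 6 of 19 genes particular to mitochondria rose and 2 fell. Within the small subunit 3 of 16 genes with a bacterial counterpart rose and 1 fell, and 6 of 10 particular to mitochondria rose and 1, Mrps27, fell. The risers of that last group were Mrps18b, Mrps23, Mrps26, Mrps31, Mrps33 and Mrps35, with log2 changes of 0.42, 0.39, 0.51, 0.46, 0.49 and 0.41. Mrpl12, a stalk protein that recruits translation factors, stood at 49.9 and 59.2 CPM in Ad-GFP replicates 2 and 3 and at 70.1, 74.9 and 75.1 CPM in Ad-RNF128 (0.27 ± 0.09 SE, edgeR adjusted p = 0.0144). Mrpl12 was named after its values were seen. Mrps36 had a log2 change of 0.14, with an adjusted p of 0.243.

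Ad-GFP replicate 1 lay outside the range of the other 5 libraries for 23 of the 28 genes that rose (82.1%), a share like the 82.0% among all genes that rose. It was above all 5 for 17 (60.7%, against 36.8%), below all for 6 (21.4%, against 45.1%) and within their range for 5. Of the 33 genes called, 24 had a log2 change of the opposite sign over all 6 libraries with TMM factors (72.7%, against 40.2% of all genes called and tested in both). These signs depend on the scaling, since the family's median there was -0.66 with TMM factors and 0.045 with library totals. The 5 risers with replicate 1 inside the range of the others were Mrpl41, Mrpl45, Mrps14, Mrps15 and Mrps18c. The positions of replicate 1 are likewise for CPM over library totals, without its TMM factor of 0.470, and depend on that scaling. Among promoters, 7 of the 21 risers with a promoter in the table held the NRF1 letters, as did 2 of 32 genes that were not called and 0 of 3 that fell. The ETS letters were in 8, 10 and 1 of them, the YY1 letters in 3, 7 and 2 and the GC box in 11, 15 and 2. These are counts without a test.

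Other genes of mitochondrial translation were taken from 3 lists, whose counts stand beside 28.9% of all genes tested that rose and 28.0% that fell. Mitoribosome proteins with other names comprised 5 genes, of which 2 rose and 0 fell against Ad-GFP replicates 2 and 3. Gadd45gip1, a large subunit protein at the tunnel exit, stood at 69.1 and 68.9 CPM in Ad-GFP replicates 2 and 3 and at 96.8, 99.1 and 94.6 CPM in Ad-RNF128 (log2 change 0.34 ± 0.07 SE, edgeR adjusted p = 0.000499), with 395.5 CPM in Ad-GFP replicate 1. Aurkaip1, a small subunit protein, rose by 0.28 ± 0.07, and Ptcd3, an RNA-binding protein of the small subunit, had -0.16 ± 0.08, without passing. Ptcd3 had 3 counts in Ad-GFP replicate 1, or 0.183 CPM, against 66.8 and 56.2 CPM in the other controls.

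Of 25 assembly factors with a row, from a list of 26, 9 rose and 5 fell, with a median log2 change of 0.20. The share called is close to that of all genes tested (56.9%). Mtg2, a GTPase of large subunit assembly, rose by 0.61 ± 0.08 (SE, edgeR adjusted p = 1.04e-05), from 21.99 and 20.6 CPM to 35.8, 35.9 and 36.8 CPM. Mpv17l2, an inner membrane protein needed for ribosome assembly, rose by 0.60 ± 0.09, from 13.9 and 12.9 CPM to 23.3, 22.3 and 22.1 CPM. Gtpbp6, a GTPase of assembly and recycling, fell by 0.70 ± 0.10, from 18 and 16.8 CPM to 12.2, 11.9 and 11.8 CPM. In Ad-GFP replicate 1 these 3 genes were at 127.8, 146.4 and 67.8 CPM, above every other library.

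Of 17 translation factors 5 rose and 1 fell, with a median log2 change of 0.16. Mtrf1, a release factor, rose by 0.52 ± 0.12 (SE, edgeR adjusted p = 0.00209) from 8.03 and 7.12 CPM to 11.8, 12.1 and 12.2 CPM. Gfm1, the elongation factor that moves the ribosome along, fell by 0.29 ± 0.08, and Tsfm, which recharges the elongation factor Tufm, rose by 0.28 ± 0.08. In Ad-GFP replicate 1 Mtrf1 had 1 count and Gfm1 was at 2.57 CPM, against 40.8 and 39.7 CPM in the other controls, while Tsfm was at 85.4 CPM, against 32.6 and 34.97 CPM. Over all 6 libraries 0 genes of the 3 lists passed edgeR's threshold, and 1 assembly factor, Gtpbp6, had an unadjusted p under 0.05 (0.0419). DESeq2 called 0 of them, with 2 at an unadjusted p under 0.05. It gave no adjusted p to some of them, including Gtpbp6, Mtg2, Mpv17l2 and Gadd45gip1, so these could not be called.

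The lower-case rows had log2 changes within the range of the family. In Ad-GFP replicates 2 and 3 and then in Ad-RNF128, mrpl24 was at 17.1, 16.5, 25.6, 25.2 and 22.4 CPM and passed (log2 change 0.38 ± 0.09 SE, edgeR adjusted p = 0.0024). The other rows, mrpl9 and mrpl11, had 0.14 and 0.06 and did not pass. All 3 were highest in Ad-GFP replicate 1, at 57.4, 116.1 and 46.7 CPM for mrpl24, mrpl9 and mrpl11.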

How the data were processed

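Polyadenylated RNA of 6 libraries was sequenced, per the labels. The submitters' processing notes name HISAT2 (an aligner), HTSeq 0.13.5 (a read counter) and the rat build mRatBN7.2, without their settings. The deposited tables hold a raw count per gene. In Ad-GFP replicate 1 a single value was not whole, so its deposited column was handled as an expected count and rounded. CPM is the count divided by the library total and multiplied by 1000000. Groups were compared with edgeR 4.0.16 (quasi-likelihood test, filterByExpr, TMM, Benjamini-Hochberg adjusted p under 0.05) in R 4.3.3, over all 6 libraries and without Ad-GFP replicate 1. Both comparisons share the Ad-RNF128 libraries and Ad-GFP replicates 2 and 3. The SE is the size of the log2 change over the root of F. DESeq2 1.42.0, other scalings, other filters, a replicate block and leaving out each library were alternatives. Tested on simulated data with known changes of at least 2-fold, the fit recovered most of them without Ad-GFP replicate 1. It did not recover them over all 6 libraries, so a lack of calls there does not show that genes were unchanged. Smaller changes, such as those of the family, were not simulated. The simulated libraries shared a single dispersion per gene, with no library that stood apart. Log2 ratios of Ad-GFP replicate 1 used a pseudocount of 1 CPM, and plain CPM ratios none. Intervals cover counting error only.

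Members and lists were chosen with earlier results of these data known. Genes given with values were the 6 largest rises and up to 6 falls without Ad-GFP replicate 1 (adjusted p under 0.05, mean CPM of at least 5, groups apart), the 3 highest and 3 lowest in Ad-GFP replicate 1, the 4 smallest p values over 6 libraries and, in each other list, the 3 smallest p values without Ad-GFP replicate 1. Proteins of named genes were planned as the printed sequences and promoters were used instead.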

Additional observations from a re-analysis of the deposited data

How the results depend on the processing

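The comparison over all 6 libraries turned on Ad-GFP replicate 1. Without a library, its counts of genes that rose ran from 0 to 28 and of genes that fell from 0 to 5, and its median log2 change from -0.91 to 0.14 (large subunit -0.99 to 0.12, small subunit -0.89 to 0.155), the upper ends all without Ad-GFP replicate 1. Single genes ranged, from the lowest to the highest log2 change over the 6 leave-outs, from -1.76 to 0.92 (Mrps18a), -2.73 to 0.81 (Mrpl2), -1.73 to 0.74 (Mrpl22), -0.39 to 0.68 (Mrpl41), -1.55 to 0.52 (Mrpl57), -3.15 to 0.29 (Mrpl28), -0.29 to 0.78 (Mrpl42), -2.29 to 0.61 (Mtg2), -3.12 to 0.60 (Mpv17l2), -2.50 to 0.34 (Gadd45gip1), -0.17 to 0.28 (Aurkaip1), -1.49 to 0.28 (Tsfm) and, for Gfm1, -0.29 to 0.52. With TMM factors, dropping Ad-GFP replicate 1 reversed each of these 13. With library totals Mrpl41 and Aurkaip1 were already positive over all 6 libraries, at 0.66 and 0.57. Scaling by library totals, the medians were 0.045 for the family, 0.026 for the large and 0.106 for the small subunit. Without Ad-GFP replicate 1, library totals gave 46 genes higher and 1 lower, with medians of 0.30, 0.27 and 0.31. In that comparison an adjusted p under 0.01 left 2 lower. The same threshold dropped Mrpl12, Mrpl14, Mrpl17, Mrpl21, Mrpl27, Mrpl45, Mrpl55, Mrps14 and Mrps15 from the rises. Leaving out a further library gave 23 to 28 higher and 2 to 4 lower, with medians of 0.15 to 0.17 (large subunit 0.14 to 0.17, small subunit 0.16 to 0.20). Across the alternatives that kept the threshold of 0.05, 19 of the 28 risers passed in every one, and of the 5 that fell only Mrps27. DESeq2 called 22 higher and 4 lower. The ratio of Ad-GFP replicate 1 to the other controls had a median of 1.64 and a median size of 1.91 with TMM-scaled library sizes. With mrpl9, mrpl11 and mrpl24 as members, an alternative chosen after seeing the data, 29 rose and 5 fell. The cause of these differences was not tested.

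Deviations of same-numbered libraries from their group means had r = -0.178, 0.0131 and -0.136. Beside Ad-GFP replicate 1 the other controls lay close together, so their deviations were nearly alike. Replicates 2 and 3 had r = 0.181 and 0.171 with Ad-RNF128 replicate 1. The check therefore cannot tell whether the numbers pair the libraries. With a replicate block 29 genes were higher and 5 lower without Ad-GFP replicate 1, and 0 and 0 over all 6 libraries.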
